A study of Mus musculus with 6 samples.

Results

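The genes described here encode enzymes that modify and clear drugs, aldehydes and other reactive molecules. They were taken from the platform annotation by symbol: the soluble glutathione S-transferases (Gsta, Gstm, Gstp, Gstt, Gsto, Gstk), the membrane-bound Mgst genes, the aldehyde dehydrogenases (Aldh), the aldo-keto reductases (Akr), the carbonyl reductases Cbr1 to Cbr4, the cytochromes P450 (Cyp, without Cyp51), the sulfotransferases (Sult) and the UDP-glucuronosyltransferases (Ugt). The rule found 137 genes of the 12393 that the array names, and where a gene has several probe sets the one with the highest mean was read. Expression was measured in the mouse lung adenocarcinoma-derived lines KPR4, KPR5 and KPR8, all of a C57/B6-129SvJae background and all grown with 10% serum. Each line was profiled once with ethanol, the vehicle, and once with 4-OH tamoxifen at 250 nM, added 24 h before RNA was collected. The drug reactivates p53 in these cells, so ethanol arrays stand for cells before p53 is restored and drug arrays for cells after. No group received the drug without p53 being restored, so effects of the 2 cannot be told apart. Each line is a single derived line, and the labels give neither animals nor repeat cultures.

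Detoxification runs in phases. Cytochromes P450 add a reactive group to a molecule, while aldo-keto and carbonyl reductases and aldehyde dehydrogenases turn carbonyl groups into alcohols or acids. Glutathione S-transferases, sulfotransferases and UDP-glucuronosyltransferases then attach glutathione, sulfate or glucuronic acid, after which transporters export the product. Many of these genes are controlled by NRF2 (gene Nfe2l2), a transcription factor that responds to oxidants and electrophiles and binds the antioxidant response element. Some are controlled by the aryl hydrocarbon receptor AHR, which binds the xenobiotic response element. In the lung, club cells are the classical site of cytochrome P450 activity. Tamoxifen itself is a substrate of several of these enzymes.

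The promoters of 2 members that were higher in KPR4 than in both other lines are shown because they hold the core of the antioxidant response element, TGACNNNGC on either strand. Each window runs from 250 bases before to 50 bases after the RefSeq start on GRCm38.p6, is on the forward strand of its chromosome, and has the match in capitals. Mgst1 lies at chr6:138140277-138140576, where the match is on the reverse strand, and Gstm5 at chr3:107895604-107895903, where it is on the forward strand. A second annotated start of Mgst1 had 0 matches.
Mgst1: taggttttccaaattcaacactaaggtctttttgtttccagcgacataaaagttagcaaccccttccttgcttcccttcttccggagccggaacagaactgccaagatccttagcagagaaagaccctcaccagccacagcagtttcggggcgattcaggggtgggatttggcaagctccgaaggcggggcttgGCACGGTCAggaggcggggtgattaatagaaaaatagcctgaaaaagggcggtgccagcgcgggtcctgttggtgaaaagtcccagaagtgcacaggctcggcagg
Gstm5: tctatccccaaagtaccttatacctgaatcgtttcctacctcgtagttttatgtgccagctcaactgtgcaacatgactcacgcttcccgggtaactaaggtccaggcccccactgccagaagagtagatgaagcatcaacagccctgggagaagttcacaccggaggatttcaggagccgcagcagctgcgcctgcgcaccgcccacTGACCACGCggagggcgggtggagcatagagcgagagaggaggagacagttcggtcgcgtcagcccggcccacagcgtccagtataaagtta

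The match lay 56 bases before the start in Mgst1 and 42 bases before it in Gstm5. RefSeq windows were found for 110 of the 137 genes, and 12 of these genes (10.9%) held the core, against 14.0% of all 27025 genes with a window. Of the 19 windowed members that were higher in KPR4 than in both other lines, 2 (10.5%) held it, and of the 8 windowed members that rose with the drug, 1 did. The core of the xenobiotic response element, GCGTG on either strand, was in 10 of those 19 genes (52.6%), in 30 of the 110 (27.3%) and in 35.2% of all genes. A p53 half-site was in 0 of the 19, 0 of the 8, 8 of the 110 (7.27%) and 9.55% of all genes. These matches describe the letters of a short window and say nothing of binding.

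Most of the family was silent or near silent in these cells. Values are log2 expression levels, and the 27 bacterial control probe sets, which no mouse RNA should bind, reached 2.84 at most and mark the background. Of the 137 members, 37 were at or under that mark on all 6 arrays and 77 stayed below log2 4 on all 6. Only 48 reached log2 4 on at least 3 arrays, and those entered the tests together with 7644 genes in all. KPR4 expressed more of the family than the other lines: 51 members reached log2 4 there with ethanol and 55 with the drug, against 44 and 45 in KPR5 and 42 and 43 in KPR8. The share of all probe sets at that level was nearly equal, 57.2% to 57.6% on each array. The normalization equalises the arrays, so this share had little room to differ.

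**Figure D1:**
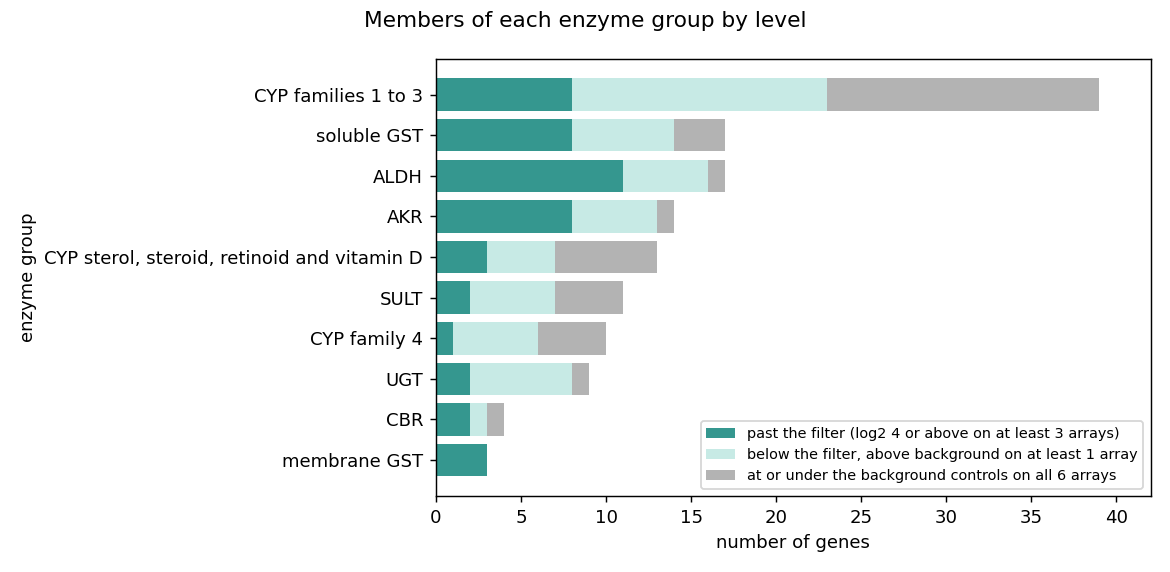
Number of genes (x axis) in each enzyme group (y axis), split into those past the filter of log2 4 on at least 3 arrays, those below it but above background on at least 1 array, and those at or under the background controls on all 6 arrays. All 3 membrane glutathione S-transferases passed, against 8 of 39 cytochromes P450 of families 1 to 3.

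The groups differed in how many members were measurable, as the bar chart by enzyme group shows. Among the cytochromes P450 of families 1 to 3, which handle foreign compounds, 8 of 39 passed the filter and 30 were below log2 4 on every array. The classical inducible P450 Cyp1a1 lay between 2.28 and 2.73 and the club-cell P450 Cyp2f2 averaged 1.40, both at background throughout. Of the sulfotransferases 2 of 11 passed (Sult1d1 and Sult5a1), and of the UDP-glucuronosyltransferases 2 of 9 (Ugt2b34 and Ugt2b37). The Ugt1a genes, whose probe sets carry several symbols, are not among the named genes. By contrast 11 of 17 aldehyde dehydrogenases, 8 of 14 aldo-keto reductases and 8 of 17 soluble glutathione S-transferases passed.

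The 10 members with the brightest probe sets were Gsto1, Akr1a1, Gstp1, Aldh1a1, Akr1b8, Aldh2, Gsta4, Aldh9a1, Aldh18a1 and Mgst1. Signals of different probe sets do not rank transcripts, so this order is of signal only. Some of them differed little between the lines on these probe sets. Akr1a1, the aldehyde reductase of general metabolism, read 11.95 and 11.90 in KPR4 with ethanol and drug, 11.79 and 12.08 in KPR5, and 11.82 and 11.94 in KPR8, and its line means spanned 0.05 (limma F-test between lines, adjusted p = 0.918). One of its 3 other probe sets was past the threshold for the drug, with a change of 0.39, unlike this one at 0.12. Aldh9a1, which oxidises aminoaldehydes, lay between 9.30 and 9.96 (adjusted p = 0.150), but on a second, dimmer probe set it read 8.38 and 8.22 in KPR4, 7.73 and 7.40 in KPR5, and 7.24 and 7.04 in KPR8. With its probe sets averaged, Aldh9a1 differed between lines (range 0.63, adjusted p = 0.0132) and KPR4 was above both others. Aldh18a1, which makes a precursor of proline, read 9.16 and 9.24 in KPR4, 9.77 and 9.99 in KPR5, and 9.85 and 9.04 in KPR8, the KPR8 drug array being the lowest of the 6. Its line means spanned 0.68 (adjusted p = 0.0478), a call that was lost without the KPR4 ethanol array (0.49) or the KPR5 drug array (0.39). On its other probe sets KPR4 differed from KPR5 by -1.06 to -0.67, against -0.68 on this one. Their changes with the drug were -0.67 to -0.30, against -0.17, and none was past the threshold.

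The lines differed in the expressed members, mostly with KPR4 highest. Levels differed between lines for 32 of 48 members (66.7%), against 42% of all genes tested (limma F-test, adjusted p under 0.05). The ethanol and drug arrays of a line served as its replicates and are not separate tumours. The tests between lines therefore say nothing about other lines. The difference reached log2 1 between the highest and lowest line mean for 26 members (54.2%), against 14% of all genes. It reached log2 3, an 8-fold range, for 9 members (18.8%), against 0.955% of all genes. The median range was 1.18 for the members and 0.50 for all genes. The 9 were Aldh3a1, Gsta4, Gstm1, Aldh1a7, Mgst2, Ugt2b34, Cbr1, Cyp2s1 and Mgst1, and every one had its highest mean in KPR4.

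KPR4 was above both other lines for 22 members (45.8%), against 7.73% of all genes, and below both for 1 (2.08%), Akr1c13, against 7.38%. KPR5 was above both other lines for 0 members, against 3.78% of all genes, and at an unadjusted p under 0.05 in limma the count was also 0. KPR5 was below both for 5 (10.4%), against 2.76%: Cyp1b1, Cyp3a13, Mgst1, Mgst2 and Sult1d1. KPR8 was above both for 2 (4.17%), Cyp3a44 and Ugt2b37, against an equal 4.17% of all genes. KPR8 was below both for 12 (25%), against 4.63%. The median member was 0.60 higher in KPR4 than in KPR5 and 0.69 higher than in KPR8, while over all genes these medians were -0.03 and 0.01. By mean level 33 members (68.8%) were highest in KPR4, 5 in KPR5 and 10 in KPR8.

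**Figure D2:**
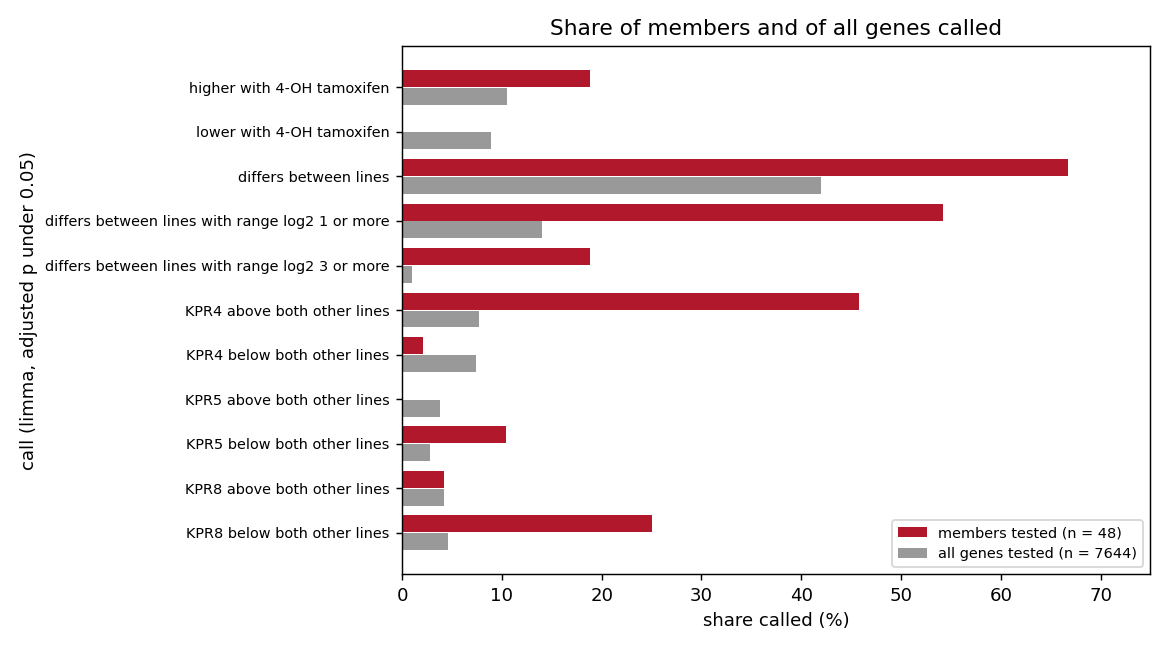
Percentage of genes (x axis) that met each call (y axis; limma, adjusted p under 0.05), for the 48 members tested (red) and for all 7644 genes tested (grey). KPR4 stood above both other lines for 45.8% of members and 7.73% of all genes, and no member was called lower with 4-OH tamoxifen.

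Among the aldehyde dehydrogenases, 7 of 11 tested members differed between lines and 6 had KPR4 above both others. The shares of all genes tested were 42% and 7.73%. The widest range of any member was that of Aldh3a1, which oxidises aromatic and lipid-derived aldehydes and is known from cornea, stomach and lung tumours. It read 11.50 and 12.12 in KPR4, 5.24 and 6.49 in KPR5, and 4.13 and 3.99 in KPR8, with ethanol and drug in that order. The lines did not overlap, and KPR4 stood 7.75 ± 0.27 above KPR8 (SE from limma), a 216-fold difference, and 5.94 ± 0.27 above KPR5 (F-test adjusted p = 3.8e-11). Aldh3a2, which oxidises fatty aldehydes, is its direct neighbour on chromosome 11. It read 9.84 and 9.86 in KPR4, 7.34 and 7.20 in KPR5, and 6.73 and 7.21 in KPR8, a 7.37-fold range in which KPR5 and KPR8 overlapped.

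Aldh1a1, which makes retinoic acid from retinal, and its neighbour on chromosome 19, Aldh1a7, followed the same order of lines. Aldh1a1 read 10.91 and 11.67 in KPR4, 9.56 and 10.51 in KPR5, and 8.47 and 9.35 in KPR8, a 5.22-fold range between line means. Aldh1a7 read 7.60 and 7.67, then 4.09 and 4.59, then 3.45 and 3.08, a 20.7-fold range. For both genes the lines did not overlap. Aldh2, the mitochondrial enzyme that clears acetaldehyde, was at 10.52 and 10.64 in KPR4, 9.24 and 9.72 in KPR5, and 9.58 and 9.69 in KPR8, with KPR5 and KPR8 overlapping. Aldh6a1, an enzyme of valine breakdown, read 5.47 and 6.04 in KPR4, 3.76 and 4.43 in KPR5, and 3.72 and 4.43 in KPR8, so that KPR4 alone stood apart.

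**Figure D3:**
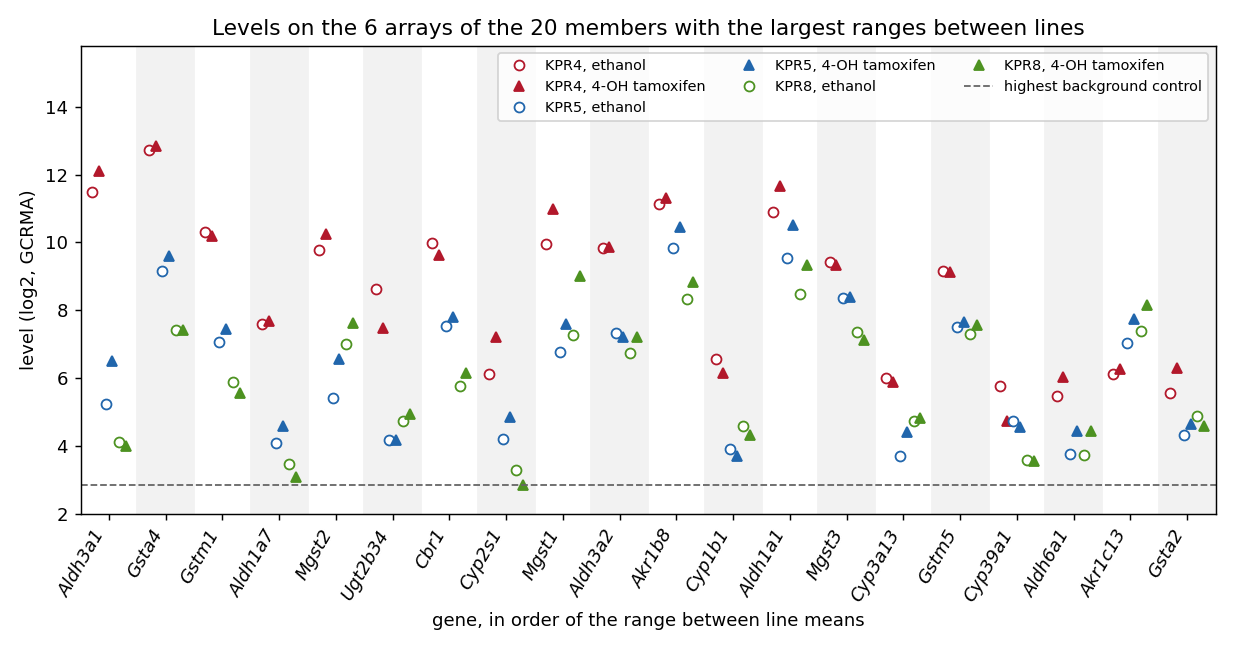
Log2 level (y axis) on each of the 6 arrays for the 20 members with the widest ranges between line means among those called (x axis, in order of range); open circles are ethanol, triangles 4-OH tamoxifen, colours the lines, and the dashed line the highest background control. Red KPR4 points are highest for every gene shown except Akr1c13, where they are lowest, and, for Cyp39a1, the KPR4 drug array, which lies at the level of KPR5.

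All 8 soluble glutathione S-transferases tested differed between lines, and KPR4 was above both others for 6, against 42% and 7.73% of all genes. Gsta4, which conjugates the lipid peroxidation product 4-hydroxynonenal, read 12.74 and 12.85 in KPR4, 9.15 and 9.59 in KPR5, and 7.42 and 7.40 in KPR8. The lines did not overlap, and KPR4 exceeded KPR5 by 3.43 ± 0.16 and KPR8 by 5.39 ± 0.16, the latter a 41.8-fold difference (adjusted p = 1.7e-11). Gstm1, a mu-class enzyme, read 10.31 and 10.19, then 7.06 and 7.44, then 5.87 and 5.56, a 23.2-fold range. Its probe set carries a suffix for probes that can bind relatives. Another bright probe set of the gene gave KPR4 above KPR5 by 2.97 and above KPR8 by 4.71. A dimmer one read 5.75 and 6.89 in KPR4 and 3.01 and 2.93 in KPR5, with both KPR8 arrays under the background mark, and a last one was under it on every array. Gsta2 read 5.54 and 6.29 in KPR4 against 4.32 to 4.86 in the other lines.

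Gstm5, whose promoter is printed above, read 9.16 and 9.12 in KPR4, 7.51 and 7.66 in KPR5, and 7.31 and 7.57 in KPR8. KPR4 was apart and the other lines overlapped, with line means spanning 1.70. Gstp1, the main transferase of many tumours, was high in every line and spanned less: 12.34 and 12.30 in KPR4, 11.53 and 11.65 in KPR5, and 11.33 and 10.96 in KPR8, a range of 1.18 (adjusted p = 3.2e-05).

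Each of the 3 membrane-bound transferases of the Mgst type was higher in KPR4 than in both other lines on its brightest probe set. Over all genes this share was 7.73%. Mgst1, the detoxifying member, read 9.94 and 10.98 in KPR4, 6.77 and 7.61 in KPR5, and 7.26 and 9.01 in KPR8, a 9.65-fold range. Its dim second probe set, between 3.54 and 4.29, went the other way, with KPR4 differing from KPR5 by -0.27 and from KPR8 by -0.48. Mgst2 read 9.77 and 10.26, then 5.42 and 6.56, then 6.99 and 7.63, a 16.3-fold range. On the brightest probe sets of both, KPR4 was apart and KPR5 had the lowest mean. Mgst3 instead ranked in the order KPR4, KPR5, KPR8, with 9.41 and 9.32, 8.36 and 8.40, and 7.37 and 7.11.

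Among the reductases, Cbr1, which reduces quinones, prostaglandins and anthracyclines, read 9.97 and 9.62 in KPR4, 7.54 and 7.80 in KPR5, and 5.77 and 6.14 in KPR8, a 14.3-fold range with no overlap (adjusted p = 1.5e-08). Akr1b8, the mouse relative of the tumour-associated reductase AKR1B10, read 11.13 and 11.31, then 9.84 and 10.47, then 8.32 and 8.82, a 6.30-fold range, also with no overlap. Akr1c13, an enzyme of the hydroxysteroid dehydrogenase cluster, ran the other way, with 6.13 and 6.27 in KPR4, 7.04 and 7.73 in KPR5, and 7.38 and 8.15 in KPR8. KPR4 was lowest there, and KPR5 and KPR8 overlapped. Of the 8 aldo-keto reductases tested, 4 differed between lines, near the 42% of all genes tested.

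Of the 8 cytochromes P450 of families 1 to 3 tested, 5 differed between lines and 3 had KPR4 above both others, at lower signals. The shares of all genes were 42% and 7.73%. For Cyp3a16 and Cyp3a44, which also differed, KPR4 stood apart from KPR8 by -0.87 in each. Among the 3 tested P450s of sterols, steroids, retinoids and vitamin D, 1 differed, and 0 had KPR4 above both. The 1 of family 4 did not differ. Cyp2s1, an extrahepatic P450, read 6.11 and 7.20 in KPR4, 4.20 and 4.85 in KPR5, and 3.27 and 2.84 in KPR8, a 12.1-fold range. Cyp1b1, an AHR target that oxidises oestrogens, read 6.57 and 6.15, then 3.91 and 3.70, then 4.59 and 4.33, a 5.87-fold range. Other probe sets of Cyp1b1, near background, showed KPR4 above KPR5 by 0.52 and -0.02. Cyp3a13 read 5.99 and 5.87 in KPR4, 3.71 and 4.42 in KPR5, and 4.72 and 4.83 in KPR8, with the lines apart. Cyp39a1, an oxysterol hydroxylase, was lowest in KPR8 at 3.57 and 3.54, against 5.76 and 4.73 in KPR4 and 4.74 and 4.56 in KPR5, whose values overlapped. Of the 2 glucuronosyltransferases tested, Ugt2b34 read 8.64 and 7.46 in KPR4 against 4.18 and 4.16 in KPR5 and 4.73 and 4.93 in KPR8, a 14.7-fold range. Ugt2b37 instead had KPR8 above both others, with 5.23 and 5.36 in KPR4, 5.92 and 5.06 in KPR5, and 7.06 and 6.19 in KPR8.

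A gene expressed in 1 line fills only 2 arrays and so fails a filter that asks for 3. Of the members that failed it, 3 had an array above log2 6, and in each the KPR4 arrays were the highest. Cbr3, a carbonyl reductase and the neighbour of Cbr1 on chromosome 16, read 7.79 and 7.98 in KPR4, 3.33 and 3.88 in KPR5, and 3.02 and 3.14 in KPR8, a 27.9-fold range. Gstm2, the neighbour of Gstm1 on chromosome 3, read 5.61 and 6.15 against 3.17 to 3.54 in the other lines, and Akr1c14, a 3-alpha-hydroxysteroid dehydrogenase, 6.03 and 4.93 against 2.44 to 2.80, or at least 6.26-fold with the other lines at the background mark. Gstm3, at 4.64 and 4.88 against 2.57 to 2.99, and Gstt3, at 5.17 and 4.93 against 1.80 to 2.61, had the same form and were picked after their values were seen. None of these genes was counted in the tests above.

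In RefSeq gene order no other protein-coding gene lies between Aldh3a1 and Aldh3a2 or between Aldh1a1 and Aldh1a7, all called higher in KPR4. The same holds for Cbr1 and Gstm1 and their untested neighbours Cbr3 and Gstm2. Neighbours were looked for only among members higher in KPR4, with those that a filter on 2 arrays adds, so pairs that differ could not appear. On chromosome 13, for example, Akr1c14 was highest in KPR4 and Akr1c13 lowest there. Whether neighbouring members share a pattern more often than other genes was not tested. Close relatives can share probe signal, and its part in these levels was not tested.

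The drug was accompanied by smaller shifts, all upward among the members called. With 4-OH tamoxifen 9 of 48 members rose (18.8%), against 10.5% of all genes tested (5.11% against 5.78% with no filter), and 0 fell, against 8.94% of all genes (limma, adjusted p under 0.05). At an unadjusted p under 0.05, 11 members were higher and 3 lower (Akr1d1, Cyp39a1 and Ugt2b37). The median change was 0.12 for the members and 0.00 for all genes, and 30 of 48 members had a positive change. By line the members' median change was 0.11 in KPR4, 0.20 in KPR5 and 0.07 in KPR8, against 0.01, 0.03 and -0.04 over all genes. The 9 were 3 aldehyde dehydrogenases (Aldh1a1, Aldh6a1, Aldh7a1), 3 glutathione S-transferases (Gsto1, Mgst1, Mgst2), 2 aldo-keto reductases (Akr1b8, Akr1c13) and 1 cytochrome P450 (Cyp4f16), and each was higher with the drug in all 3 lines.

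Gsto1, the omega-class transferase that reduces dehydroascorbate and methylated arsenic, had the firmest rise. It went from 11.67, 11.23 and 11.39 in KPR4, KPR5 and KPR8 with ethanol to 12.85, 12.23 and 12.24 with the drug. The ethanol and drug arrays did not overlap, with means of 11.43 ± 0.22 and 12.44 ± 0.35 (SD, n = 3). The change was 1.01 ± 0.10 on the log2 scale (SE), or 2.02-fold (limma adjusted p = 7.7e-06), and a dimmer probe set gave 0.82 (adjusted p = 0.0100 in a fit of all probe sets).

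The membrane transferases Mgst1 and Mgst2 rose in each line from very different starting levels. The log2 change of Mgst1 was 1.03 in KPR4, 0.83 in KPR5 and 1.75 in KPR8, with a mean of 1.20 ± 0.18 or 2.30-fold (limma adjusted p = 0.00024). The dim second probe set of Mgst1 gave -0.03. Mgst2 changed by 0.50, 1.15 and 0.63, with a mean of 0.76 ± 0.17 (adjusted p = 0.00559). For both genes the KPR4 array with ethanol was still higher than the KPR5 and KPR8 arrays with the drug, so the difference between lines exceeded the response. Mgst3 was not called, and its log2 change was -0.10.

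**Figure D4:**
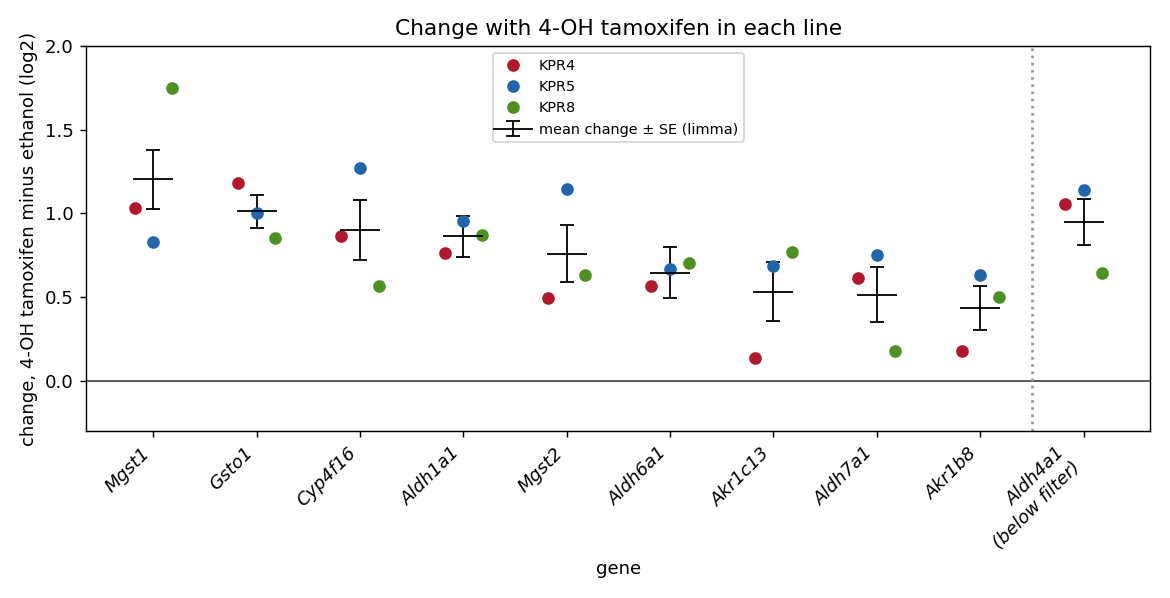
Log2 change with 4-OH tamoxifen against ethanol (y axis) in each line (coloured points) for the 9 members called and, to the right of the dotted line, Aldh4a1, which failed the filter; bars are the mean change ± SE from limma. All points lie above 0, from 0.14 for Akr1c13 in KPR4 to 1.75 for Mgst1 in KPR8.

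Aldh1a1 rose by nearly the same amount in each line, 0.76 in KPR4, 0.95 in KPR5 and 0.87 in KPR8, with a mean change of 0.86 ± 0.12 or 1.82-fold (limma adjusted p = 0.000193). Its order between lines was the same under both treatments. In the same order of lines Aldh6a1 changed by 0.57, 0.67 and 0.70, with a mean of 0.65 ± 0.15 (adjusted p = 0.00738), and without KPR8 the call was lost. Aldh7a1, which breaks down lysine and protects against osmotic stress, went from 7.71, 7.72 and 7.63 with ethanol to 8.33, 8.47 and 7.81 with the drug, a change of 0.52 ± 0.16 (adjusted p = 0.0395). Its groups did not overlap, but its dim other probe sets gave 0.14 and -0.15, and the call was lost without KPR4 and without KPR5.

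Aldh4a1, the proline-breakdown dehydrogenase and a known p53 target, was below the filter. It read 3.23, 3.17 and 3.07 with ethanol and 4.28, 4.31 and 3.71 with the drug, so the groups did not overlap. In a limma fit with no filter its change was 0.95 ± 0.14 (adjusted p = 0.000821). It is named as a known target and was picked after its values were seen. Aldh2, with 3 probe sets, was not called on its brightest (0.24, adjusted p = 0.229), although the others gave 0.59 and 0.76 (adjusted p = 0.0353 and 0.0224 in a fit of all probe sets) and their average 0.53, past the threshold.

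Of the remaining members that rose, Cyp4f16, a family 4 P450 that hydroxylates fatty acids and eicosanoids, went from 5.70, 4.87 and 5.33 to 6.56, 6.15 and 5.90. Its groups did not overlap, and the change was 0.90 ± 0.18 (limma adjusted p = 0.00245), against 0.38 on a second probe set. Akr1b8 had a change of 0.18 for KPR4, 0.63 for KPR5 and 0.50 for KPR8 (mean 0.44 ± 0.13, adjusted p = 0.0301), and Akr1c13 by 0.14, 0.69 and 0.77 (mean 0.53 ± 0.18, adjusted p = 0.0464). Both changes were smallest in KPR4, and both calls were lost without KPR5 and without KPR8. The difference of response between lines was not tested, since each line has 1 array per treatment.

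The widest line difference was not accompanied by a called response. Aldh3a1 had a change of 0.62 for KPR4, 1.25 for KPR5 and -0.14 for KPR8 (mean 0.58 ± 0.22, adjusted p = 0.0754). Without KPR8 its mean change was 0.94 and past the threshold, as was that of Cyp2s1 at 0.87. Neither Gsta4 nor Gstm1 nor Cbr1 was called. The lowest mean changes among tested members were those of Ugt2b37, -0.53 (adjusted p = 0.0789), Cyp39a1, -0.41 (adjusted p = 0.142), and Akr1d1, a reductase of bile acid synthesis, -0.40 (adjusted p = 0.0816).

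Other genes of the same pathways were read from lists that are not made of these families. Of 27 hydrolases, oxidases and reductases on the array 19 were tested: 5 rose with the drug, against 10.5% of all genes, 0 fell (0 also at an unadjusted p under 0.05 in limma), and 8 were higher in KPR4 than in both other lines, against 7.73% of all genes, with 0 lower. Those that rose were Dcxr and Ephx1, with changes of 4.45 and 4.04, and Cyb5a, Hsd17b4 and Pon2, with 0.70, 0.78 and 0.72. Nqo1, a quinone reductase and standard NRF2 target, read 8.20 and 8.67 in KPR4, 5.72 and 5.83 in KPR5, and 5.23 and 4.86 in KPR8. Of 13 tested genes for conjugation and cofactor supply, 3 rose (Gclc, Gss and Nat2), 0 fell (0 also at an unadjusted p under 0.05 in limma) and 8 were higher in KPR4 than in both other lines, beside the same shares of all genes. Gclc, the catalytic subunit of the enzyme that limits glutathione synthesis, read 9.33, 6.70 and 6.48 with ethanol in KPR4, KPR5 and KPR8 and 10.80, 8.63 and 7.18 with the drug, a change of 1.36 ± 0.20 (adjusted p = 0.000237). Of 6 tested export pumps 1 rose, Abcb1b with a change of 1.60, against 10.5% of all genes. The 1 that fell was Abcg2, with a change of -0.54, against 8.94% of all genes.

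Members that NRF2 is known to control mostly had KPR4 highest. Of 9 tested genes on that list, 9 differed between lines and 8 had KPR4 above both others, against 42% and 7.73% of all genes. In KPR4 the list's median was 2.12 above KPR5 and 2.65 above KPR8. This list overlaps the genes described above, so it adds no separate evidence. With the drug 2 of the 9 rose, against 10.5% of all genes, and 0 fell, against 8.94%, with a median change of 0.19. Nfe2l2 itself read 11.06 and 11.85 in KPR4, 10.17 and 10.73 in KPR5, and 10.16 and 10.48 in KPR8. Its change with the drug was 0.56 ± 0.12 (limma adjusted p = 0.00443). Gclc rose by 1.36, as given above, while Nqo1 and Gclm were not called, with changes of 0.07 and -0.19. Keap1, which restrains NRF2, did not pass between lines (range 0.36, adjusted p = 0.341).

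AHR-responsive genes did not move as 1 group. Of 4 tested, 3 were higher in KPR4 than in both other lines (Aldh3a1, Cyp1b1 and Nqo1), against 7.73% of all genes. Tiparp was lower in KPR4 than in both, against 7.38% of all genes, while Cyp1a1 was at background. Ahr lay between 5.84 and 6.59 on all arrays. The xenobiotic receptors Nr1i2 (PXR) and Nr1i3 (CAR) were at background on every array. Of 5 tested retinoid genes, Aldh1a1 and Dhrs3 were higher in KPR4 than in both other lines, against 7.73% of all genes. Only Aldh1a1 rose with the drug, against 10.5% of all genes. Of 9 tested regulators on the list, 3 were higher in KPR4 than in both other lines (Nfe2l2, Pparg and Hnf4a), against 7.73% of all genes. Tiparp was the 1 that was lower. Pparg read 8.42 and 8.45 in KPR4, 6.56 and 6.13 in KPR5, and 5.88 and 4.79 in KPR8. Hnf4a, a regulator of liver and gut genes, had the same order, with 12.39 and 12.51 in KPR4, 7.40 and 7.87 in KPR5, and 5.72 and 5.55 in KPR8. Aldh3a1 and Gsta4 had the same order of lines, while Mgst1, Mgst2, Cyp1b1, Cyp3a13 and Ugt2b34 had their lowest mean in KPR5. Any link of Hnf4a or Pparg to these genes was not tested.

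Markers of cell types were also read on each array. All 5 epithelial markers were expressed. Krt19 and Cdh1 were higher in KPR4 than in both other lines, by 0.95 and 0.45 over KPR5 and 1.47 and 0.37 over KPR8. Epcam was lower there, with differences of -1.48 and -1.11, and with the drug it fell by 0.37 while Cdh1 rose by 0.30. The summed log2 level of the 5 lay between 58.4 and 59.8 on all arrays, and the part of these markers in the results was not tested. None of the 4 alveolar type 2 and 3 club cell markers on the array passed the filter, so the lung origin in the labels does not show in them. Of 3 hepatocyte markers on the array 0 passed: Alb, the defining one, lay between 3.39 and 3.70, but Ttr read 8.86 and 6.58 in KPR4 and 3.22 to 3.41 in the other lines. The summed log2 level of these 3 was 17.3 and 14.5 in KPR4, 10.7 and 10.3 in KPR5, and 10.3 and 10.3 in KPR8, and their part in the line difference was not tested. All 3 fibroblast markers were tested: Col1a1 was higher in KPR4 than in both other lines, for Col1a2 KPR4 was 0.94 above KPR5 and 0.41 above KPR8 (the latter not past the threshold), and for Pdgfra KPR4 differed from KPR5 by -1.14 and from KPR8 by -0.20 (the latter not past the threshold). Their sums were 16.7 and 17.1 in KPR4, 15.3 and 14.9 in KPR5, and 15.9 and 16.1 in KPR8. Of 3 leukocyte markers Cd68 rose with the drug, while Ptprc, the defining one, was at background on every array. Neither of 2 endothelial markers passed. The difference between 3' and 5' Gapdh probe sets, a measure of RNA integrity, was 0.73 and 0.97 in KPR4, 0.77 and 1.06 in KPR5, and 0.95 and 0.55 in KPR8. For beta-actin it was 1.45 and 1.62, then 1.34 and 1.74, then 1.71 and 1.64. KPR4 did not stand apart in either. Both were higher with the drug in KPR4 and KPR5 and lower in KPR8. Aldh3a1, Cyp2s1 and Cyp2c55 changed with the same split, while the members called for the drug did not. The part of RNA integrity in these changes was not tested.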

How the data were processed

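Biotin-labelled cDNA from 100 ng total RNA of each culture was hybridised to Affymetrix arrays, 1 per line and treatment. The deposited values are log2 levels per probe set. The authors used GCRMA 2.20.0 under R version 2.11.0, according to the submitters' processing notes, and the set of arrays normalized together was not given in the sources used here. GCRMA equalises the arrays (medians 4.56 to 4.63), so a change shared by most genes would not show. The values carry no detection calls; background was read from 27 Bacillus subtilis control probe sets (1.13 to 2.84 on any array). The number of arrays limits the precision, and p-values measure the spread between these samples, which may be technical.

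Of 22690 probe sets, 20380 have 1 symbol in GEO's platform annotation, standing for 12393 genes. Members had 183 probe sets, and 34 members had more than 1. Another 10 probe sets with several symbols include a member family and were not used. Genes that reached log2 4 on 3 or more of the 6 arrays were fitted in limma 3.58.1 (R 4.3.3) with terms for line and treatment, a trend on level, and Benjamini-Hochberg adjustment over all 7644 genes at 0.05 (2-sided). Lines were compared by the F-test and by pairwise contrasts in that fit; above or below both other lines means that both contrasts passed in that direction. The residual degrees of freedom were 2 and the prior added 12.9. The line is a block because every line had both treatments by design: deviations of the 2 arrays of a line from the treatment means correlated at 0.876, 0.737 and 0.761. In simulated data of the treatment comparison with these 7644 genes, 100% of genes changed by log2 1 were recovered. The simulated noise came from this fit's own variances, and the change was the same in every line. This share therefore does not cover smaller changes or changes that differ between lines.

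Named were members called for treatment, the 20 with the widest ranges between called lines, the 10 brightest, and those failing the filter with an array above log2 6; others are said to be picked after their values were seen. The members and lists were chosen with earlier results of these data known. Promoter windows are RefSeq's (GRCm38.p6). Alternatives were no line block, no filter, a filter of log2 6, probe sets averaged per gene, quantile normalization, no trend, each other probe set, each line left out and, added after seeing the data, a filter on 2 arrays.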

Additional observations from a re-analysis of the deposited data

Results flagged for a closer look

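Cyp2c55, a cytochrome P450 with low signal, was lower with the drug in KPR8, by a log2 change of -0.68, and higher in KPR4 and KPR5, by 0.53 and 0.46. The highest and lowest changes differed by 1.21. It was picked out because the lines moved in opposite directions; with 1 array per line and treatment the difference was not tested, and its mean change of 0.10 was not called (limma adjusted p = 0.778).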

How the results depend on the processing

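Of 292 alternative values for changes of named members with the drug, 23 lost the call, 7 gained one and 2 turned a called change: Mgst1 on its dim probe set (-0.028) and Aldh7a1 on one near background (-0.15). The other 260 stayed on their side of the threshold. Among 199 values of members that were not called, 15 in 10 genes changed sign, 4 of them on other probe sets (Aldh9a1, Cyp1b1, Gstm1 and Ugt2b34). Of 326 values for ranges between lines, 316 kept their side. Without the replicate block, that is with arrays not paired by line, 0 members were called higher with the drug in limma, 2 at an unadjusted p under 0.05, since the line differences then enter the spread. Leaving out a line gave 6 to 8 higher; without KPR4, 2 members were called lower (Cyp26a1 and Ugt2b37), and 0 to 2 over the lines left out. With no filter 1 member was called lower (Cyp27b1, at background on every array), Akr1b8, Akr1c13 and Aldh7a1 lost their calls, 7 of 137 were called higher (5.11%, against 5.78% of all genes), 54 differed between lines (39.4% against 27.4%) and 34 had KPR4 above both others (24.8% against 5.46%). With the filter at log2 6, 22 members were tested, 17 differed between lines (77.3% against 47.8%) and 14 had KPR4 above both (63.6% against 8.04%). A filter on 2 arrays admits genes through the line in which they are high, so its counts show nothing further on lines. Leaving out 1 array gave 19 to 22 members with KPR4 above both. Quantile normalization, the mean of probe sets and no trend left these counts within 1.5 times. Levels of members under log2 4 lie near the background controls, which limits the reading of their differences.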
